A study of Homo sapiens with 3 samples.

Results

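The transcripts described here are those of 35 aminoacyl-tRNA synthetases, taken by gene name from the 60609 genes of each count table. They comprise 19 genes of the cytosolic set (gene names ending in 1, with FARSA and FARSB, the subunits of the phenylalanine enzyme) and 16 of the mitochondrial set (gene names ending in 2). All 35 were found and all had reads. RNA was sequenced from NCI-H209 cells, a human line established from small cell lung cancer and neuroendocrine in type, in 3 libraries. Each library carried a different doxycycline-inducible lentiviral short hairpin in the Tet-pLKO-puro vector: sh490 and sh1362, taken as the hairpins against the Src-family kinase YES1, and shGFP, the control hairpin against GFP. Doxycycline at 1 µg/mL every 2 days was the stated treatment, and the time from induction to harvest is not given in the sources used here. One line was used, and no source used here says whether the infected cells were a clone or a pool. With 1 library per hairpin, a difference between single libraries has no replicate check.

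Aminoacyl-tRNA synthetases attach each amino acid to its matching tRNA and so set the meaning of the genetic code at translation. Cytosolic and mitochondrial translation are served by largely separate enzymes, all encoded in the nucleus; GARS1 and KARS1 are exceptions, each making both the cytosolic and the mitochondrial form. Several cytosolic enzymes sit together in the multisynthetase complex, held by the scaffold proteins AIMP1, AIMP2 and EEF1E1. When amino acids run short or the endoplasmic reticulum is stressed, the transcription factor ATF4 raises many cytosolic synthetase genes together with enzymes of amino acid synthesis and with amino acid transporters. It acts through a short promoter element, the C/EBP-ATF response element.

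The promoters of the members were searched for that element, and the matches are shown because they group the cytosolic genes in a way the gene names do not. The 8-base core TGATGNAA was searched on both strands, where it reads TTNCATCA on the other, in RefSeq promoter windows of GRCh38.p14, each 300 bases long, from 250 bases before the start of transcription to 50 from it. Windows were present for 30 of the 35 genes. A match stood in 7 of 16 cytosolic genes (43.8%) and in 1 of 14 mitochondrial genes (7.14%), against 4.46% of all 27305 genes with a window. Among the 12 cytosolic genes listed as known ATF4 targets, 7 of the 10 with a window had a match, while 0 of the 6 others did. In a separate list of 30 genes of the ATF4 and amino acid response, 6 of the 24 with a window had a match (25%). The 7 cytosolic matches are shown on each gene's own strand, with the 8-base match in capitals; a match is a description of the letters and not a shown binding site.
IARS1: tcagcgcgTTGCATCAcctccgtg
MARS1: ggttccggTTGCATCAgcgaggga
CARS1: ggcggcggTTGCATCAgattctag
TARS1: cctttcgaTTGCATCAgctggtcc
AARS1: tctcgcagTTGCATCAgccaagtt
GARS1: cgcggcgaTTTCATCAtgctccga
NARS1: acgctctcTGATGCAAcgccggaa
These lie at chr9:92293695-92293718 (minus strand) for IARS1, chr12:57488056-57488079 (plus) for MARS1, chr11:3057410-3057433 (minus) for CARS1 and chr5:33440959-33440982 (plus) for TARS1. The other three are at chr16:70289678-70289701 (minus) for AARS1, chr7:30594837-30594860 (plus) for GARS1 and chr18:57621807-57621830 (minus) for NARS1. In IARS1 the match begins 13 bases before the start, in MARS1 4, in CARS1 2, in GARS1 33 and in AARS1 187. The TARS1 and NARS1 matches begin just after it. The 1 mitochondrial gene with a match was YARS2.

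Where 3 values follow each other without labels they are for sh490, sh1362 and shGFP, and where 2 log2 folds do, for sh490 and then sh1362 against shGFP. The libraries held 7791747, 7421552 and 4899006 counts, so values from shGFP are the least precise. YES1 checked the labels: it had 163, 216 and 1465 counts, and the levels in the hairpin libraries were 6.79% and 9.66% of shGFP. All 10 neuroendocrine markers of the line were detected at a mean of 5 CPM or more (counts scaled to library size with edgeR's TMM factors), and they were not level between libraries. Their median log2 fold was -0.02 with sh490 (5 higher, 5 lower) and 0.43 with sh1362 (8 higher, 2 lower). At least 1.5-fold higher lay 2 of the 10 with sh490 and 4 with sh1362, against 7.04% and 11.5% of all 11638 genes at that level. INSM1, a neuroendocrine transcription factor, had 199.8, 368.8 and 109.7 CPM, and NCAM1, an adhesion molecule, 134.6, 269.1 and 145.3. UCHL1 had 921.0, 964.4 and 588.0 CPM and STMN2 5.44, 4.75 and 6.63. Reads of the mitochondrial genome made up 5.50%, 7.78% and 5.47% of counts, so sh1362 stood apart there too. Of 8 red cell markers, 6 had reads and summed to 18.8, 20.5 and 737.2 CPM, nearly all of it the globins HBB, HBA1 and HBA2, with AHSP at 0 in every library. White cell markers summed to 2.02, 2.99 and 8.71 CPM over 7 of 8 genes with reads, CD3E being at 0, and fibroblast markers to 9.36, 6.93 and 7.46 CPM over 5 of 6, DCN being at 0. The globins move with the shGFP library in every comparison against it, and their part in the values below was not tested. In bulk RNA, fewer cells of a type and less RNA per cell cannot be told apart. The comparison of sh1362 with sh490 does not use shGFP.

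Together the 35 transcripts took 0.869%, 0.901% and 0.895% of all counts. Cytosolic members summed to 7682, 8220 and 8197 CPM, and mitochondrial members to 877.2, 864.2 and 890.4 CPM. In TPM (counts divided by exon length and scaled to the same total in every library), the median cytosolic member stood at 227.8, 213.4 and 220.7. For mitochondrial members these medians were 38.4, 35.1 and 32.4. The summed level of the family was therefore much the same in the 3 libraries, and the median cytosolic gene stood well above the median mitochondrial one per length.

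**Figure D1:**
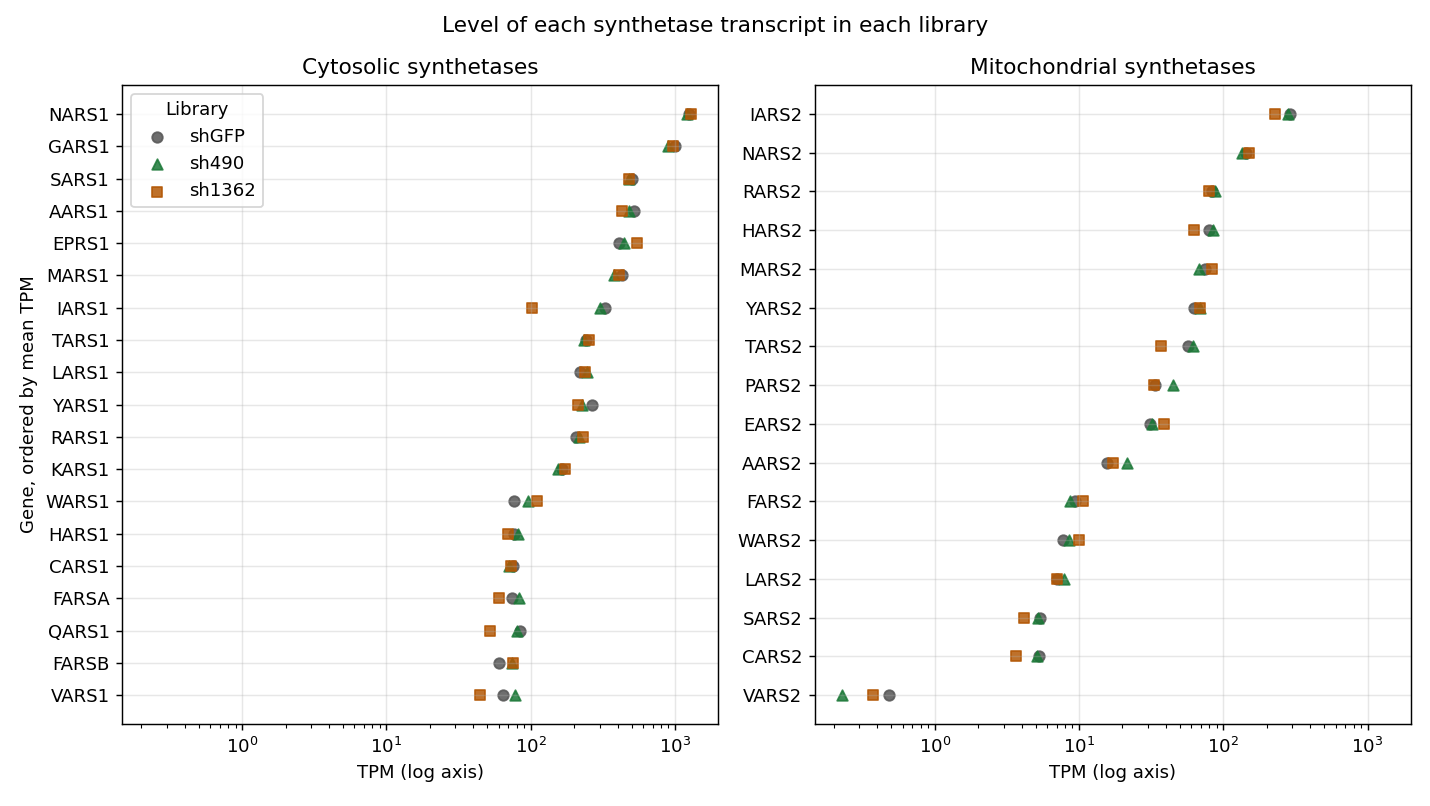
TPM on a log axis for each synthetase gene, cytosolic on the left and mitochondrial on the right, ordered by mean TPM; circles are shGFP, triangles sh490 and squares sh1362, 1 library each. The symbols lie almost on top of each other for most genes, and IARS1 in sh1362, at 101.8 TPM, sits apart from 304.4 in sh490 and 326.4 in shGFP.

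NARS1, the asparagine enzyme, had the highest level in every library, at 1204, 1289 and 1247 TPM. GARS1, the glycine enzyme, came next with 893.7, 974.2 and 1008 TPM. SARS1 (serine) had 480.3, 478.5 and 501.2 TPM, and AARS1 (alanine) 478.7, 431.0 and 521.2. These levels of SARS1 and AARS1 overlap between libraries, so their order is not fixed. The lowest cytosolic mean was that of VARS1 (valine), with 77.7, 44.7 and 64.5 TPM. On the mitochondrial side IARS2 (isoleucine) led with 279.2, 229.5 and 289.6 TPM, followed by NARS2 with 135.0, 151.7 and 143.2.

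The mitochondrial valine and serine enzymes were hardly counted. VARS2 had 3, 5 and 4 counts, and SARS2 34, 28 and 22. In the annotation used for counting, 63.0% of the exon bases of VARS2 are shared with another gene, ENSG00000288473, and 57.0% of those of SARS2 with ENSG00000269547 or MRPS12. Reads that overlap several genes were left out by the counting program's defaults, so the levels of VARS2 and SARS2 are uncertain. ENSG00000288473 itself had 2, 0 and 0 counts, and ENSG00000269547 had none. YARS2 shares 18.1% of its exon bases with a gene on the other strand, MARS1 13.3% with 3 genes (DDIT3 among them) and WARS1 10.6% with 2. In every other member the overlap was at most that of GARS1, at 7.66%.

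To find which synthetase transcripts differed when YES1 was targeted, both hairpin libraries were taken as 1 group and compared with shGFP. No synthetase passed: of 34 members tested, 0 had an adjusted p under 0.05 (edgeR quasi-likelihood test, two-sided, Benjamini-Hochberg), where 0.0255% of all 15708 genes did. At an unadjusted p under 0.05 the count was also 0 of 34, against 4.35% of all genes. DESeq2 and limma-voom also called 0 of 34. VARS2 was left out of this test by the filter on low counts. The smallest unadjusted p in the family was that of WARS1, the tryptophan enzyme, whose log2 fold was 0.46 (standard error 0.29, edgeR quasi-likelihood test, Benjamini-Hochberg adjusted p = 0.986). IARS1, the isoleucine enzyme, had a log2 fold of -0.69 (standard error 0.52, adjusted p = 0.986 by the same edgeR test), and its value differed widely between the hairpin libraries. The spread behind these p-values comes from the sh490 and sh1362 libraries, so it includes any difference between the hairpins. For most genes it was drawn largely from all genes together, at 1 residual degree of freedom beside a median prior of 7.16. No source used here describes repeat cultures of either hairpin.

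Each hairpin was next set against shGFP by size alone, with no test, on log2 CPM after adding a prior count of 2. Both comparisons use the same shGFP library. Of the 33 members with a mean of 5 CPM or more, 0 lay 1.5-fold or more above shGFP with sh490 and 0 as far below it. Among all 11638 genes at that level, 7.04% lay that far above and 6.32% below. Of the 18 members with a mean of 100 CPM or more, 0 lay that far above or below, against 1.78% and 4.16% of the 2527 genes of that level. At 2-fold the member counts were also 0, against 1.39% of all genes above and 1.42% below. With sh1362, 1 member was at least 1.5-fold higher (WARS1; 11.5% of all genes) and 1 lower (IARS1; 15.2%). Both are among the 18, where the shares of the 2527 genes were 6.61% and 11.8%. IARS1 was also the 1 member at least 2-fold lower with sh1362, where 6.0% of all genes were, and 0 members were 2-fold higher (3.3%). The middle 50% of the 33 members lay between log2 folds of -0.14 and 0.10 with sh490, and between -0.20 and 0.23 with sh1362. Over all genes these bounds were -0.22 and 0.23, and -0.35 and 0.31.

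**Figure D2:**
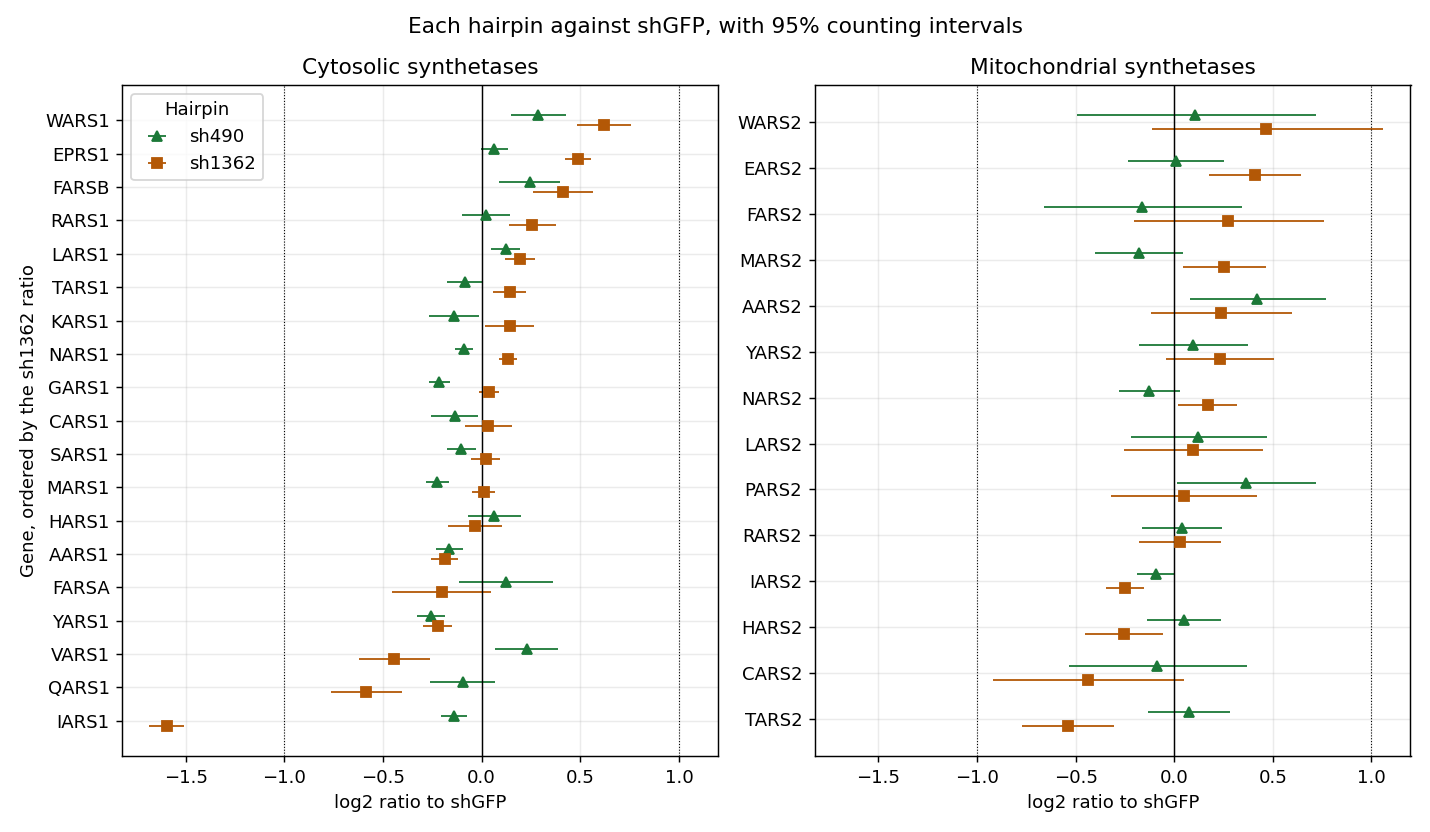
Log2 ratio of each hairpin library to shGFP for the 33 synthetases with a mean of 5 CPM or more, cytosolic on the left and mitochondrial on the right; triangles are sh490, squares sh1362, and bars are exact 95% intervals of counting error. Dotted lines mark a 2-fold difference, and only IARS1 with sh1362, at 33.1% of shGFP, lies beyond one.

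Cytosolic and mitochondrial sets both had medians near the shGFP level. With sh490 the median log2 fold was -0.09 over the 19 cytosolic genes (8 higher, 11 lower) and 0.02 over the 16 mitochondrial genes (9 higher, 7 lower). With sh1362 it was 0.03 (12 higher, 7 lower) and 0.07 (10 higher, 6 lower). HARS1 with sh1362, at -0.03, was the 1 member whose sign turned under another library scaling. Over the 11638 genes the median was 0.00 with sh490 and -0.01 with sh1362. In the cytosolic set the exact 95% counting intervals are narrow, so that 13 of 19 left out a ratio of 1 with sh490 and 13 with sh1362. Over both sets this count was 15 of 33 with sh490 and 19 of 33 with sh1362, against 42.7% and 55.9% of all genes. Between the hairpins it was 24 of 33, against 55.4%. Such intervals cover counting error only.

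IARS1 (ENSG00000196305.17, chromosome 9, 92210207 to 92293756, minus strand, GRCh38) was the member that stood out. Its counts were 4590 (sh490), 1561 (sh1362) and 3088 (shGFP), or 580.5, 212.0 and 640.2 CPM. The sh1362 library was low, and the others lay close to each other. In sh1362 the level was 33.1% of shGFP (exact 95% counting interval 31.1 to 35.2) and 36.5% of sh490 (34.5 to 38.7), while in sh490 it was 90.7% of shGFP (86.6 to 94.9). The log2 differences were -1.59 for sh1362 against shGFP, -1.45 for sh1362 against sh490 and -0.14 for sh490 against shGFP. The 100 CPM level was chosen after values had been seen. IARS1 was the 1 of the 18 synthetases at that level that lay at least 2-fold lower with sh1362 than with shGFP (4.55% of the 2527) or than with sh490 (2.61%). Of the 2527 genes, 26 including IARS1 lay at or below its sh1362 fold against shGFP, and 22 at or below its fold against sh490. No exon of IARS1 overlaps another gene in the annotation. With reads of the mitochondrial genome and of the globins left out of the library totals, the sh1362 differences of IARS1 were -1.55 against shGFP and -1.45 against sh490.

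The chromosome 9 genes nearest to IARS1, among those averaging at least 5 CPM, did not share its low level in sh1362. They were looked at after the IARS1 value had been seen. NOL8, at 92297358 to 92325636, had 387, 385 and 179 counts, log2 folds of 0.40 and 0.49. SPTLC1, on the other side, a subunit of the enzyme that starts sphingolipid synthesis, had 651, 868 and 341 counts, log2 folds of 0.22 and 0.74. For the 6 neighbours looked at, the sh1362 folds against shGFP ran from 0.05 (CENPP) to 0.74 (SPTLC1); CENPP, with 70, 38 and 24 counts, lay at -0.75 against sh490.

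The other enzymes of the multisynthetase complex lay on both sides of shGFP with sh1362. Besides IARS1 the list holds EPRS1, LARS1, MARS1, QARS1, RARS1 and KARS1. EPRS1, a fused enzyme for glutamate and proline, had 607.2, 815.7 and 580.9 CPM in sh490, sh1362 and shGFP. Its level in sh1362 was 140.4% of shGFP (134.2 to 146.9) and in sh490 104.5% (99.7 to 109.6). QARS1, the glutamine enzyme, had 97.5, 69.5 and 104.3 CPM, and in sh1362 stood at 66.7% of shGFP (58.8 to 75.6), a log2 fold of -0.58 that falls just short of the 1.5-fold line. LARS1 (leucine), RARS1 (arginine), KARS1 (lysine) and MARS1 (methionine) had sh1362 log2 folds of 0.20, 0.26, 0.14 and 0.01. With sh1362 the 7 genes therefore spread from -1.59 to 0.49 around a median of 0.14, and with sh490 from -0.22 to 0.12 around -0.10.

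The scaffold proteins of the complex were measured in all libraries. AIMP2 had 30.2, 44.3 and 22.2 CPM, log2 folds of 0.44 and 0.99. AIMP1, which also holds the complex together, had 145.6, 139.7 and 119.6 CPM, log2 folds of 0.28 and 0.22. EEF1E1 had 42.9, 47.7 and 45.2 CPM, log2 folds of -0.08 and 0.08. AIMP2 with sh1362 was the 1 value of the 3 genes past 1.5-fold, as 11.5% of all genes were in that direction.

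WARS1 was the highest of the cytosolic members against shGFP. It had 1240, 1456 and 620 counts, or 156.8, 197.7 and 128.5 CPM. In sh490 this was 122.0% of shGFP (110.7 to 134.6) and in sh1362 153.8% (139.9 to 169.3). The shGFP library was the low one, and the hairpin libraries themselves differed by a log2 of 0.33. WARS1 is also a known target of interferon gamma, and other genes of that response were set beside it. Of 8 listed genes 5 averaged at least 5 CPM, and their median log2 folds were 0.19 and 0.12. GBP2, an interferon-induced GTPase, had -0.40 and -0.89, and TAP1, a peptide transporter of antigen presentation, 0.42 and 0.17. IRF1, a transcription factor of that response, had 0.27 and 0.12, and the proteasome subunit gene PSMB9 0.19 and 0.15.

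FARSA and FARSB encode the subunits of 1 enzyme, and their values lay on opposite sides of shGFP with sh1362 but not with sh490. FARSA had 410, 305 and 230 counts, and its log2 folds were 0.12 with sh490 and -0.20 with sh1362. FARSB had 1015, 1063 and 523 counts, with log2 folds of 0.24 and 0.41. The counting interval of FARSA included no difference with either hairpin (92.3 to 128.4% and 73.0 to 103.5% of shGFP), and that of FARSB did not (106.4 to 131.8% and 119.8 to 148.1%). VARS1 had 931, 545 and 485 counts, which is 117.1% of shGFP in sh490 (104.8 to 131.0) and 73.6% in sh1362 (65.0 to 83.4).

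The cytosolic genes with the promoter core shown above, IARS1 included, had sh490 log2 folds in a narrow band. All 7 were below 0, from -0.22 (MARS1) to -0.09 (TARS1), with a median of -0.14. Each of them averaged at least 100 CPM, and of the 2527 genes at that level 1422 were lower with sh490, with a median of -0.03. The 9 cytosolic genes with a window and no match had a median of 0.06, from -0.14 to 0.29 (6 higher, 3 lower). With sh1362 the medians were 0.03 and 0.14, and the 6 matching genes other than IARS1 ran from -0.19 (AARS1) to 0.14 (TARS1). YARS1 (tyrosine), for which no window was present, had 481.9, 493.2 and 575.7 CPM, log2 folds of -0.26 and -0.22. MARS1 had 5416, 5936 and 3858 counts, 85.6% of shGFP in sh490 (82.2 to 89.3) and 100.8% in sh1362 (96.8 to 105.0). GARS1 had 7273, 8065 and 5148 counts, 86.2% (83.2 to 89.3) and 102.6% (99.1 to 106.3). The folds with sh490 were all under 1.5-fold, and 0 of the 34 members tested passed the edgeR test.

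Other ATF4 targets were set beside them. The list of 30 genes of the ATF4 and amino acid response had 27 members that averaged at least 5 CPM. Their median was -0.01 with sh490 (13 higher, 14 lower) and 0.40 with sh1362 (22 higher, 5 lower). The 12 synthetases listed as ATF4 targets had medians of -0.12 (3 higher, 9 lower) and 0.04 (9 higher, 3 lower). With sh1362, 9 of the 27 were at least 1.5-fold higher and 1 of the 12 synthetases was (WARS1), against 11.5% of all genes. The neuroendocrine markers and the mitochondrial genome share also lay higher in sh1362, and their part in these values was not tested. SLC6A9, a glycine transporter, had 144, 152 and 36 counts, log2 folds of 1.25 and 1.43. PCK2, a mitochondrial gluconeogenic enzyme, had 0.44 and 0.97, and GPT2, a mitochondrial alanine aminotransferase, 0.58 and 0.77. ASNS, which makes asparagine, had 104, 107 and 122 counts, log2 folds of -0.93 and -0.79. NARS1, which uses asparagine, had 10031, 10924 and 6517 counts, 93.9% of shGFP in sh490 (91.0 to 96.9) and 109.8% in sh1362 (106.5 to 113.2). ATF4 itself had 373.7, 459.8 and 421.5 CPM.

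**Figure D3:**
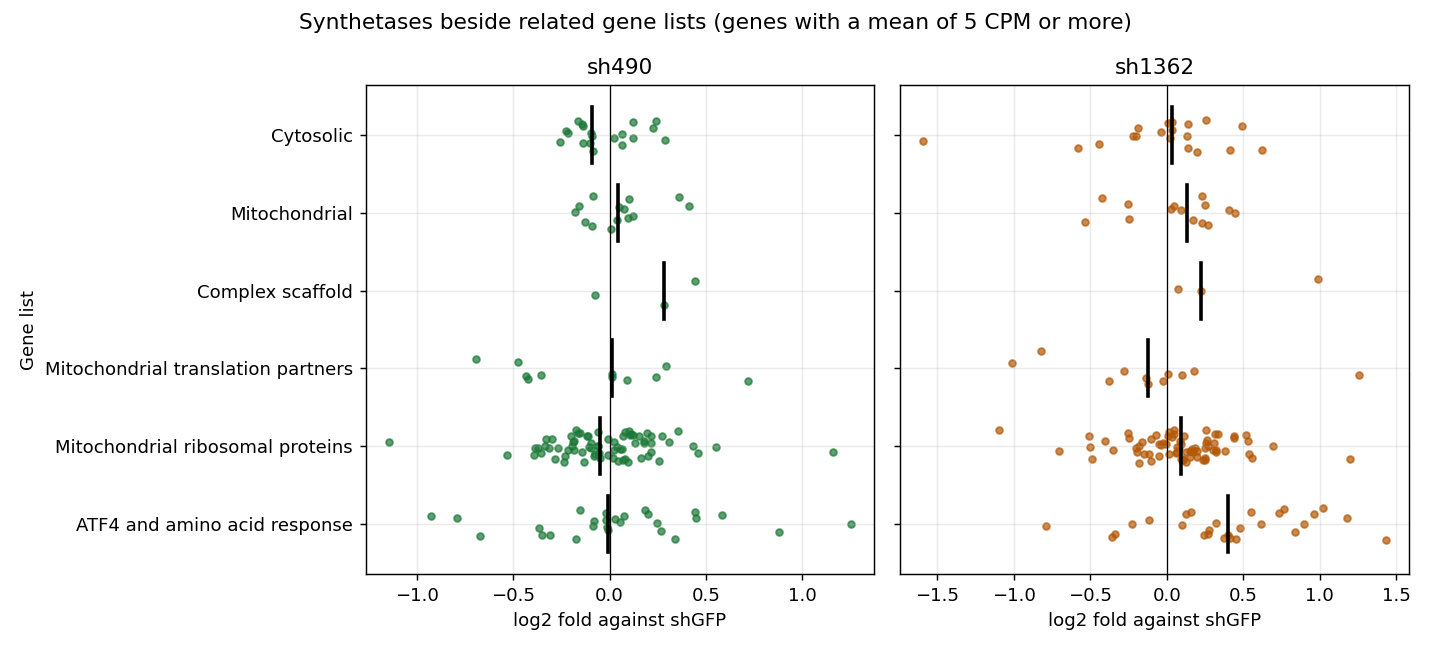
Log2 fold against shGFP for sh490 (left) and sh1362 (right) of single genes averaging at least 5 CPM (points) in 6 lists, with black bars at the list medians. The synthetase medians lie between -0.09 and 0.13, and that of the ATF4 and amino acid list lies at -0.01 with sh490 and 0.40 with sh1362.

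Among the mitochondrial members, TARS2, the threonine enzyme, had the lowest value with sh1362. It had 516, 314 and 299 counts, or 65.3, 42.6 and 62.0 CPM, and in sh1362 stood at 68.8% of shGFP (58.5 to 80.9) and 65.3% of sh490 (56.6 to 75.3). The sh1362 library was again the low one. With mitochondrial genome and globin reads left out of the totals, its TARS2 differences were -0.49 against shGFP and -0.61 against sh490. HARS2 (histidine) had 80.9, 65.5 and 78.2 CPM, and IARS2 297.5, 267.1 and 317.4 CPM. EARS2, the glutamate enzyme, had 47.2, 62.2 and 46.9 CPM, 132.7% of shGFP in sh1362 (112.9 to 156.4). AARS2 (alanine) had 228, 187 and 104 counts, 133.7% of shGFP in sh490 (105.6 to 170.3) and 117.8% in sh1362 (92.2 to 151.2). PARS2 (proline) had 215, 161 and 102 counts, 128.6% in sh490 (101.1 to 164.4) and 103.4% in sh1362 (80.2 to 133.8). MARS2 had 417, 524 and 288 counts and NARS2 865, 989 and 576, with sh1362 log2 folds of 0.25 and 0.17. The remaining mitochondrial genes that averaged at least 5 CPM, CARS2, FARS2, LARS2, RARS2, WARS2 and YARS2, had counting intervals that included no difference from shGFP with either hairpin.

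Genes that act with the mitochondrial synthetases lay on both sides of shGFP. Over the 11 of 12 listed partners that averaged at least 5 CPM the medians were 0.01 with sh490 and -0.12 with sh1362. TUFM, which delivers charged tRNA to the mitochondrial ribosome, had 1724, 748 and 988 counts, log2 folds of 0.09 and -1.01. MTFMT, which formylates the initiator tRNA in mitochondria, had 66, 56 and 66 counts, log2 folds of -0.69 and -0.82. GATB, a subunit of the amidotransferase that makes mitochondrial glutaminyl-tRNA, had -0.48 and -0.38. PTRH2, a peptidyl-tRNA hydrolase, had 104, 142 and 38 counts, 0.72 and 1.26. Over 73 mitochondrial ribosomal protein genes the medians were -0.05 and 0.09. MRPL58, a peptide release factor built into that ribosome, had log2 folds of 1.16 and 1.20, and MRPL18 -0.33 and -1.10. MRPS28 had -1.15 and -0.51, and MRPL40 0.31 and 0.69.

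A ratio within a library is not changed by library scaling, so the cytosolic and mitochondrial enzymes of the same amino acid were compared pair by pair. The 35 genes gave 16 pairs, with EPRS1 in 2 of them and FARSA and FARSB averaged. In each library the cytosolic gene had the higher TPM in 15 of 16 pairs, and the median ratios were 9.47, 9.76 and 9.29. The exception was histidine in sh490 and shGFP (ratios of 0.968 and 0.959) and isoleucine in sh1362 (0.443). IARS1 over IARS2 was 1.09 in sh490 and 1.13 in shGFP. Isoleucine and histidine were thus the pairs whose order differed between libraries, and the histidine ratios all lay near 1.

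The difference of log2 folds, cytosolic minus mitochondrial, had a median of -0.02 over the 16 pairs with sh490 (7 above 0, 9 below). With sh1362 it was 0.09 (9 above, 7 below). Isoleucine had -0.05 with sh490 and -1.34 with sh1362. Threonine was the highest with sh1362, at 0.68 against -0.16 with sh490. Next with sh1362 came cysteine, at 0.46 against -0.05 with sh490, and proline, at 0.44 against -0.29. Alanine had -0.58 with sh490 and -0.42 with sh1362, and tyrosine -0.35 with sh490 and -0.45 with sh1362. The valine pair, 0.96 with sh490 and -0.23 with sh1362, rests on VARS2 with 3, 5 and 4 counts and cannot be read.

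**Figure D4:**
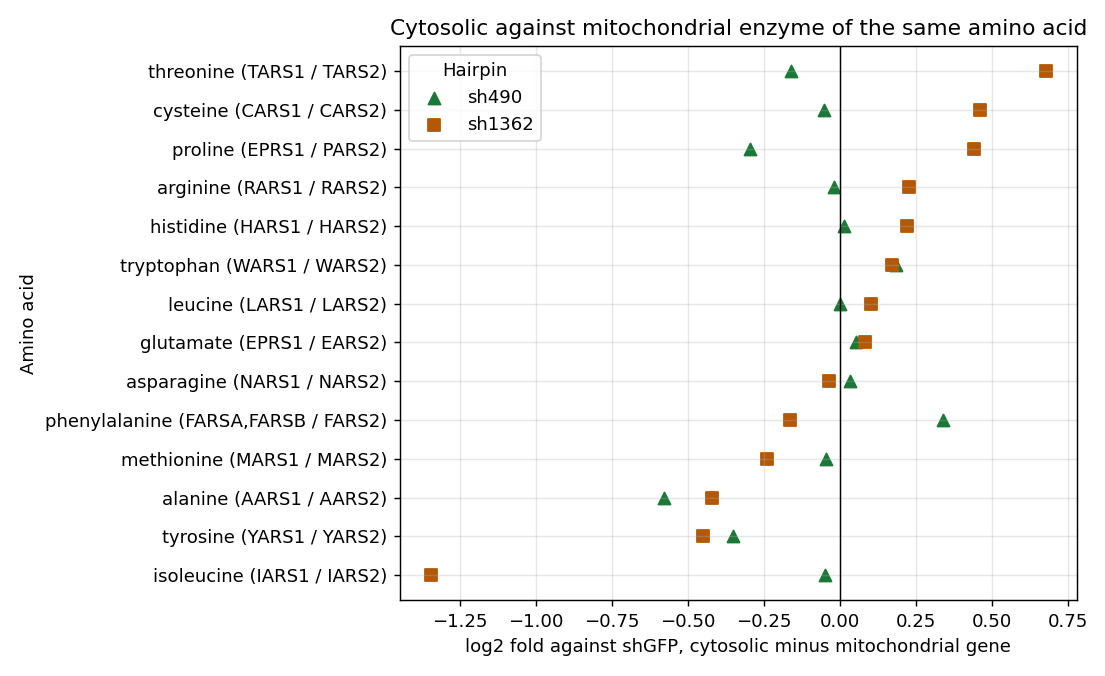
Log2 fold against shGFP of the cytosolic gene minus that of the mitochondrial gene for 14 amino acids; triangles are sh490 and squares sh1362, and the serine and valine pairs are left out because SARS2 and VARS2 were hardly counted. Isoleucine with sh1362, at -1.34, lies farther from 0 than every other pair drawn.

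HARS1 and HARS2 are divergent neighbours on chromosome 5. Their RefSeq starts, at positions 140691370 and 140691455, lie 85 bases apart, their promoter windows share 184 bases, and their annotated exons overlap by 108 bases. The TPM levels were alike: HARS1 had 81.8, 69.9 and 76.1 in sh490, sh1362 and shGFP, and HARS2 had 84.5, 62.5 and 79.3. Against shGFP, HARS1 stood at 104.5% in sh490 (95.3 to 114.6) and 97.6% in sh1362 (88.8 to 107.3), and HARS2 at 103.6% (91.0 to 117.9) and 83.7% (73.0 to 96.1). Both genes had their lowest value in sh1362, though for HARS1 the difference from shGFP changed sign under another library scaling.

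Finally the hairpins were compared with each other. Of the 33 members, 3 were at least 1.5-fold lower with sh1362 than with sh490, namely IARS1, VARS1 and TARS2, where 12.2% of all genes were, and IARS1 alone was at least 2-fold lower (3.88%). At a mean of 100 CPM or more, 1 of 18 was 1.5-fold lower (8.71% of the 2527 genes) and 0 higher (5.18%). The count at least 1.5-fold higher was 0 of 33 (8.18% of all genes), and at least 2-fold higher also 0 (2.02%). VARS1 in sh1362 stood at 62.9% of sh490 (56.4 to 69.9). The median log2 difference was 0.17 over the cytosolic genes (13 higher, 6 lower with sh1362) and -0.02 over the mitochondrial genes (7 higher, 9 lower). Among the 12 synthetases listed as ATF4 targets it was 0.20 (10 higher, 2 lower), and among the 7 other cytosolic genes -0.10 (3 higher, 4 lower). Over 27 genes of the ATF4 and amino acid response it was 0.34 (23 higher, 4 lower), and over all genes -0.02. SLC7A5, an amino acid transporter, had 97.5 CPM in sh490 and 223.7 in sh1362, and MTHFD2, a mitochondrial folate enzyme, 281.8 and 503.9. By the fold of the catalytic domain, the 19 class I genes had a median of 0.13 and the 16 class II genes 0.05. Leaving out VARS2 and SARS2, which were hardly counted, turned this order. The medians were then 0.10 over 18 class I genes and 0.12 over 15 class II genes, so the order of the classes is not fixed.

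Editing and side enzymes of charging were measured too, in a list that also held the message-binding gene LARP1. DTD2, listed as an editing enzyme, had 21, 66 and 18 counts. It averaged 5 CPM or more only through sh1362, so its high value there is in part why it is named. DTD1, a related enzyme, had 330, 386 and 159 counts, 0.34 and 0.66. TARS3, a cytosolic threonine enzyme related to TARS1, had 24.7, 31.5 and 24.3 CPM. LARP1, which binds messages of the translation machinery, had 511.6, 643.4 and 463.4 CPM. Of the cytosolic elongation factors, EEF1A1, which carries charged tRNA to the ribosome, had 837.0, 907.4 and 639.4 CPM, and EEF2 1851, 2072 and 1671. EEF1B2 had log2 folds of 0.12 and -0.17, and EEF1D 0.10 and -0.48. EEF1G was listed at 0 in every library. Reads shared by more than 1 gene were not counted, and exon overlap was not examined for EEF1G. A count of 0 therefore does not show that its transcript was absent. EEF1A1 shares near-identical sequence with many pseudogene copies, so its level is uncertain.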

How the data were processed

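The authors deposited a table of raw counts by gene for every library, not normalized, with each gene's exon length. Reads were aligned to GRCh38 with STAR 2.6.1c after FastQC 0.11.8, per the submitters' processing notes, and counted over exons of GENCODE version 32 with featureCounts 1.6.0 at its defaults, per the file headers. Those defaults ignore strand and drop multi-mapped reads and reads shared by more than 1 gene. The RNA is labelled polyA, and libraries were made with a SMARTER mRNA-Seq kit, per the labels' protocols.

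Genes were matched to symbols by identifier (60340 of 60609). Counts of both hairpins were tested against shGFP with edgeR 4.0.16 (R 4.3.3): TMM, filterByExpr, robust quasi-likelihood F test, adjusted p under 0.05. There was 1 residual degree of freedom; shGFP, being alone, is taken to vary as the hairpin libraries do. In simulated data the test recovered most 4-fold changes and few 2-fold changes. Those changes were placed only in better-counted genes and were of the same size in both hairpin libraries. A count of 0 therefore does not show that members did not differ. DESeq2 1.42.0, limma 3.58.1 and other filters and scalings were alternatives. Single libraries were compared on log2 CPM (prior count 2), with exact 95% binomial intervals of the count ratio. Without molecular identifiers reads may be copies of 1 molecule, so these intervals cover counting error only.

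Members and lists were chosen with earlier results of these data known, and the ATF4 target list came from general knowledge. The named genes were all 35 synthetases and up to 4 genes of each other list, those with the largest absolute mean of both hairpins' folds at a mean of 5 CPM or more; ATF4, SLC7A5, MTHFD2, the genes beside IARS1 and listed genes at 0 in every library were added after their values had been seen. Protein signatures were not analysed here.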

Additional observations from a re-analysis of the deposited data

How the results depend on the processing

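The count of synthetases past the threshold was 0 under every test run: edgeR with DESeq2 size factors, with library totals, without a filter on low counts and at a mean of 5 CPM or more, DESeq2 and limma-voom. Without the filter 1 member, IARS1, had an unadjusted p under 0.05 (edgeR quasi-likelihood test, Benjamini-Hochberg adjusted p = 0.807). The count of all genes called was 4 in the main test, 58 without the filter and 2 with limma-voom. The 3 log2 differences of IARS1 kept their sign under each scaling and prior count tried. The median cytosolic difference of sh1362 from sh490, 0.17, became -0.014 when the mean replaced the median; the mean includes IARS1. Across all settings the cytosolic minus mitochondrial difference of medians ran from -0.14 to -0.01 with sh490 and from -0.10 to 0.05 with sh1362, so its sign with sh1362 is not fixed. Leaving out a hairpin leaves 1 library against 1 and no test; the IARS1 fold was then -0.14 (sh490) or -1.59 (sh1362). No paired analysis was possible because the groups share fewer than 2 replicate numbers.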
